A study of Mus musculus with 9 samples.

Results

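The 3 libraries of untreated synovial fibroblasts (SFs) from hTNFtg mice were compared with the 3 libraries of SFs from wild-type (WT) mice, over every gene whose normalized count averaged 10 or more across these 6 libraries. This minimum kept 13634 of the 49548 genes in the table. Of these, 573 had a mean below 10 in WT and 396 in hTNFtg SFs. Such genes passed the minimum through the other genotype alone, so the minimum itself favours a difference in them. hTNFtg mice carry a human TNF transgene and develop a chronic polyarthritis, and the WT mice do not carry it. All animals were CBA C57BL/6J mice of 8 weeks, an age at which disease is established in the transgenic line. SFs were grown out of the ankle joints and depleted of CD45+ cells at passage 1. The labels give both groups as having no treatment, while the methods of the study describe culture with vehicle for 48 hours. The remaining 3 libraries, hTNFtg SFs with infliximab, were not compared here. Replicates are described as biological, but whether each library stands for 1 animal or a pool is not given in the sources used here.

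TNF is a cytokine that binds a pair of receptors, TNFR1 on most cells and TNFR2 on a narrower set, and the main transcriptional route from TNFR1 runs through the NF-kB family of transcription factors. SFs line and support the joint, where they make lubricant, hyaluronan and collagen matrix. Under TNF they are known to turn to chemokine, prostaglandin and matrix protease production, and in arthritis they take part in cartilage and bone loss. These are cultured cells, so the profile is that of cells kept outside the joint, and the human transgene itself has no row in the table.

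Messenger RNA was read from its 3′ end (QuantSeq on the Ion Proton), 1 read standing for 1 transcript end, so a value is not divided by gene length. The depth recovered from the values was about 4520893 to 6525755 reads in the WT libraries and 613349, 4789956 and 9015557 reads in hTNFtg replicates 1, 2 and 3. Hence hTNFtg replicate 1 was the shallowest, with 16009 genes above 0 against 20384 to 22699 in the others, and 3 of its reads are worth a normalized count of 18.7 against 1.60 to 2.90 elsewhere. hTNFtg replicate 3 also stood apart. It held the Y-linked Ddx3y at 309 and Eif2s3y at 127 with Xist at 2, whereas Xist was at 131 to 560 in the other libraries and Ddx3y at 6 or less. Sex therefore differs between that library and the rest. The median SD of a gene on the log2 scale was 0.58 over the hTNFtg and 0.34 over the WT libraries. Group counts are given below with all libraries, and a list count of 3 or more that moved by over 1.5 times when 1 library was left out is given with that value. Smaller moves are not all given.

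By the rule of the study, an unadjusted P below 0.05 with an absolute log2 fold change of at least 1 (limma on log2 of the normalized count plus 1), 676 genes were raised in hTNFtg SFs, 4.96% of those tested, and 549 were lowered, 4.03%. Requiring an adjusted p below 0.05 as well left 67 raised (0.491%) and 70 lowered genes (0.513%). Non-overlapping groups, where all 3 libraries of one genotype exceed all 3 of the other, were more common, with 1284 genes higher (9.42%) and 1256 lower (9.21%) in hTNFtg SFs. Without hTNFtg replicate 1, 621 genes were raised and 532 lowered, of which 495 and 380 were called with all libraries as well. Without hTNFtg replicate 3, 850 were raised and 894 lowered, of which 559 and 462 were shared. Throughout, "raised" and "lowered" refer to the rule of the study, and an adjusted p is one over all 28522 genes detected in at least 1 library. The median log2 fold change (hTNFtg minus WT) over all 13634 genes was −0.07.

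**Figure D1:**
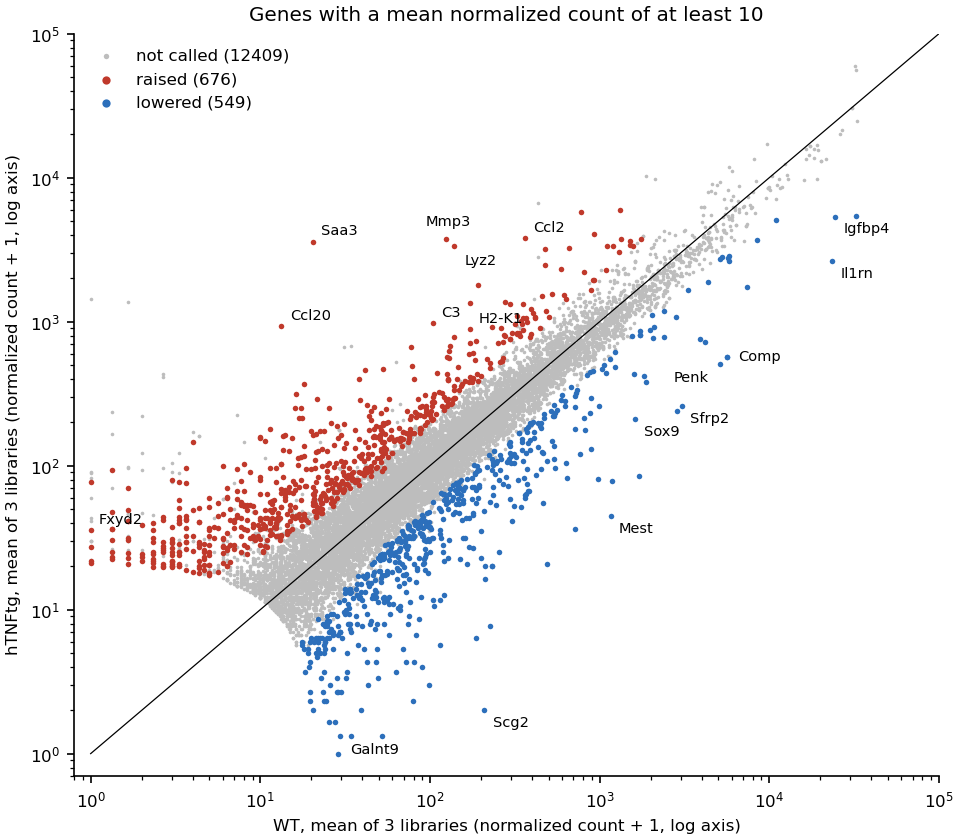
Mean normalized count plus 1 in WT SFs (x axis, log10 scale) against hTNFtg SFs (y axis, log10 scale), 1 point per gene, for the 13634 genes tested. Raised (676) and lowered (549) genes are coloured, and the calls reach across the whole range of levels.

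Apart from the acute phase protein Saa3, the protease Mmp3 and the chemokines Ccl20, Ccl5 and Ccl8, the 10 largest rises with an adjusted p below 0.05 comprised Ch25h, Fxyd2, Lyz1, Lyz2 and Sirpb1c. Ch25h, which makes 25-hydroxycholesterol, read 2, 38 and 11 in WT and 486, 354 and 270 in hTNFtg SFs (log2 fold change 5.01 ± 0.73 SE, adjusted p = 0.0148). The lysozyme gene Lyz2 read 43, 277 and 95 against 5356, 2284 and 2356 (4.86 ± 0.58, adjusted p = 0.00614). In both genes every hTNFtg library was above every WT library. Fxyd2, a regulator of the sodium pump, was listed at 0 in all WT libraries and at 44, 28 and 32 in hTNFtg SFs, at least 13.7-fold higher.

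Among the 10 largest falls with an adjusted p below 0.05 and no overlap between the groups were Sp7 (Osterix), a transcription factor of the osteoblast lineage, at 65, 80 and 90 in WT and 0, 2 and 2 in hTNFtg SFs (−5.24 ± 0.70, adjusted p = 0.00948), and Mest, an imprinted gene expressed from the paternal allele, at 1298, 726 and 1465 against 44, 68 and 19 (−4.81 ± 0.45, adjusted p = 0.00164). Mest overlaps Copg2 on the opposite strand, and reads of such pairs cannot be told apart here unless strand was used in counting. The glycosyltransferase Galnt9 was at 28, 25 and 30 in WT and at 0 in every hTNFtg library, at least 3.63-fold lower. The WNT receptor Fzd9 read 23, 51 and 80 in WT and 0, 1 and 0 in hTNFtg SFs, at least 6.74-fold lower. The other 6 of these falls were Scg2, Otor, Matn4, Slc30a3, Kcne4 and Fxyd1, with log2 fold changes from −6.93 to −5.09. All 6 were at 0 in hTNFtg replicate 1, where 0 allows up to 18.7, and without that library Otor was at −4.28, Matn4 at −4.38, Fxyd1 at −4.29, Kcne4 at −4.79, Slc30a3 at −4.93 and Scg2 at −6.60.

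Because SF cultures can carry other cells of the joint, lists of markers were read alongside. The summed macrophage and monocyte markers (23 entries, including a second, near-empty one for Itgam) stood at 259, 1296 and 506 in WT and 9434, 4551 and 8411 in hTNFtg SFs. Of the list, 22 entries, the second of Itgam among them, had the higher mean in hTNFtg SFs. Of its 19 tested members 17 were raised, and H2-Aa was at 0 throughout. Lyz2 made up most of that sum in hTNFtg replicate 1, and Ptprc, which encodes CD45, read 0, 3 and 0 against 31, 9 and 12. The lists that follow include genes which macrophages also express, such as C1qb, Itgam, Itgb2, Ctss, Il2rg and Tlr13, and the part of these cells in their differences was not tested. In bulk RNA, fewer cells of a type and less RNA per cell cannot be told apart. The osteoclast markers (11 genes) summed to 219, 966 and 278 against 697, 1114 and 5231, groups that overlapped, with 3 raised genes. Mmp9 carried much of this, at 5, 554 and 15 in WT and 143, 696 and 4533 in hTNFtg SFs.

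Fibroblast markers were abundant in both groups. Pan-fibroblast markers (Col1a1, Col1a2, Vim, Pdgfra and others) summed to 46052, 48369 and 56289 in WT and 48585, 39769 and 41680 in hTNFtg SFs. Of these 14 genes 4 were higher in hTNFtg SFs, podoplanin (Pdpn) was raised, at 941, 982 and 852 against 1987, 4695 and 5582 (2.01, adjusted p = 0.0729), and Lum was lowered. Lining-layer markers summed to 368, 436 and 397 against 697, 678 and 493, and sublining markers to 22301, 17889 and 24305 against 14935, 11536 and 12771. Neither pair overlapped. Most of the lining sum was Prg4, which encodes lubricin, at 299, 375 and 321 against 554, 534 and 382 (0.55, adjusted p = 0.726). Hbegf (40, 32 and 37 against 75, 86 and 75) and Cd55 (8, 8 and 15 against 56, 22 and 18) were the raised lining markers. The lower sublining sum was carried by the abundant Cxcl12 and Comp, and 7 of the 10 sublining genes had the higher mean in hTNFtg SFs. Cxcl14 was raised among them (1145, 517 and 303 against 2410, 3640 and 3698), and Thy1, which encodes the sublining marker CD90, read 414, 403 and 354 against 797, 596 and 527 (0.69, adjusted p = 0.570). Chondrocyte markers summed to 1945, 2589 and 2935 in WT and 635, 762 and 513 in hTNFtg SFs, with Matn1 at 0 in all libraries. Neutrophil (741 to 1081 against 618 to 1077) and lymphocyte markers (11 to 28 against 9 to 12) overlapped. The neutrophil sum was mostly Elane, with 5 of the 10 genes at 0 in all libraries, and its raised member was Camp, at 15, 20 and 9 against 87, 104 and 41 (2.28, adjusted p = 0.0971).

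**Figure D2:**
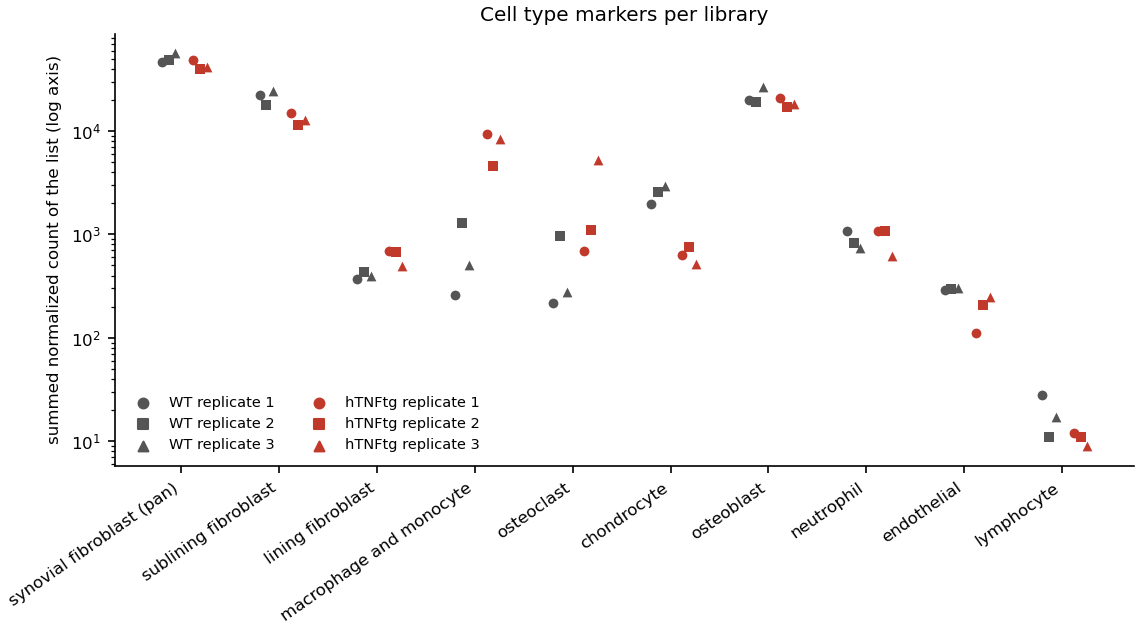
Summed normalized counts of each cell type marker list (y axis, log10 scale), with 1 point per library for WT and hTNFtg SFs. The macrophage sums lie at 259 to 1296 in WT and 4551 to 9434 in hTNFtg SFs, whereas the pan-fibroblast sums overlap between genotypes.

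Genes of the NF-kB system were mostly higher in hTNFtg SFs. Of 24 tested subunits, adaptors and inhibitors, 10 were raised and none lowered (8 and 0 without hTNFtg replicate 1, 11 and 1 without replicate 3), 20 were higher, and the median log2 fold change was 0.78. Nfkbia, which encodes the inhibitor IkBα that holds NF-kB in the cytoplasm, read 302, 267 and 319 in WT and 953, 1313 and 1714 in hTNFtg SFs (2.12 ± 0.31, adjusted p = 0.0148). The related inhibitor Nfkbie read 11, 24 and 14 against 75, 113 and 151 (2.73 ± 0.45, adjusted p = 0.0237). Both inhibitors separated the genotypes without overlap. Tnfaip3, whose product A20 removes activating ubiquitin chains from the TNF receptor complex, read 3, 1 and 0 against 50, 14 and 21 (3.68, adjusted p = 0.124). Traf3, a brake on the non-canonical branch, read 104, 111 and 100 against 293, 251 and 285 (1.39, adjusted p = 0.0605). The macrophage marker sums given above moved with the same genotype, and their part in these values was not tested.

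To look at the promoters of these genes, the NF-kB (kB) consensus was searched on both strands of the window from 250 bases before to 50 bases after the start of each gene (RefSeq, GRCm38.p6). It was present in 9 of 20 promoters of the NF-kB list (45%), 6 of 13 of the chemokine list (46.2%) and 7 of 17 of the MHC class I list (41.2%), against 12.3% of the 9081 tested genes with an entry and 9.55% of all entries. These list shares cover called and uncalled members alike, so they describe the lists and do not compare the genotypes. Among the raised genes 15.9% held a match and among the lowered 14.3%. A match is a run of letters and not a measured binding site. Of the 49 genes with an adjusted p below 0.05 and a rise that had an entry, 8 held a match (Ccl20, H2-K1, Kcnn4, Nfkbia, Nfkbie, Tm4sf1, Tmem176b and Tspan11). Those of Ccl20, H2-K1, Nfkbia and Nfkbie were chosen because they belong to the NF-kB, chemokine and MHC class I lists. They are shown 5′ to 3′ on the strand of the gene, with the match in capitals.
Ccl20, chr1:83116656-83116725 (+): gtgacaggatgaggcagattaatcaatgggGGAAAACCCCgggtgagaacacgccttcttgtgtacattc
H2-K1, chr17:34000418-34000488 (−): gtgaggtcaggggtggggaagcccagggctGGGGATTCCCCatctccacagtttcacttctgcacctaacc
Nfkbia, chr12:55492637-55492706 (−): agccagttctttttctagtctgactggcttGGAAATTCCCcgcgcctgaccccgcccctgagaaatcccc
Nfkbie, chr17:45555564-45555633 (+): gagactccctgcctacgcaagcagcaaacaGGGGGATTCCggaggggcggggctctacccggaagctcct

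In each of these genes the 3 hTNFtg libraries exceeded the 3 WT libraries. For the other motifs, the AP-1 site TGANTCA was in 11.2% of raised and 5.66% of lowered promoters against 6.29% of the tested genes and 8.97% of all promoters. It was in 6.12% of the 49 promoters of raised genes with an adjusted p below 0.05. The core of the interferon-stimulated response element, GAAA repeated after 2 bases, was in 11 of 22 promoters of the interferon-stimulated list (50%) against 3.66% of the tested genes. That share again covers called and uncalled members of the list. Among raised promoters the motif was in 5.47% and among lowered in 2.16%.

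Endogenous Tnf was low, at 1, 4 and 7 in WT and 25, 24 and 24 in hTNFtg SFs (2.56, adjusted p = 0.254), and hTNFtg replicate 1 holds only a few reads at that level. The TNF receptors differed in pattern. Tnfrsf1a (TNFR1) read 1131, 646 and 465 against 884, 522 and 428, overlapping groups (−0.26, adjusted p = 0.799). Tnfrsf1b (TNFR2) read 46, 49 and 58 against 137, 99 and 112 (1.16, adjusted p = 0.216), with no overlap. Over the TNF and TNF receptor superfamily 4 of 29 genes were raised (also the necroptosis executor Mlkl, and Tnfrsf26) and 1, the death receptor Tnfrsf21, was lowered. Mlkl was not called without hTNFtg replicate 1 (1.21), and Tnfrsf26 was not called without hTNFtg replicate 3 (1.85).

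Chemokine genes were the list with the highest median rise (1.70), with 11 of 19 tested members raised and 4 lowered (9 and 2 without hTNFtg replicate 1, 11 and 3 without replicate 3). Of the 19, 5 passed the minimum through 1 genotype alone. The lowered count was 1 when any WT library or hTNFtg replicate 2 was left out. The monocyte chemoattractants Ccl2 (545, 329 and 207 against 4914, 3855 and 2579) and Ccl7 (750, 390 and 284 against 3208, 1943 and 2226) were raised, with adjusted p of 0.00598 and 0.0237. In contrast, Cxcl12, the stromal chemokine that retains haematopoietic cells, read 12054, 8959 and 11906 in WT and 8128, 4033 and 2995 in hTNFtg SFs (−1.24, adjusted p = 0.587). Without hTNFtg replicate 3 the log2 fold change of Cxcl12 was −0.93, short of the minimum. Ccl27a overlaps the receptor gene Il11ra1 on the opposite strand. Ccl27b and its neighbour Il11ra2, which do not overlap by position, had nearly the same values in WT (132, 179 and 405 for Ccl27b, 132, 177 and 405 for Il11ra2), and both pairs are uncertain as separate values.

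Of 16 tested interleukin and colony-stimulating factor genes 3 were higher in hTNFtg SFs, 1 was raised (2 without hTNFtg replicate 1) and 3 were lowered (1 without WT replicate 1 or 3). Their median of −0.35 was −0.09 without hTNFtg replicate 1. The interleukin-1 receptor antagonist Il1rn (chr2:24336853-24351494, mm10, as are all gene positions here), a secreted blocker of IL-1, was among the most abundant transcripts of WT SFs, at 30966, 22047 and 17452, and read 2859, 4228 and 771 in hTNFtg SFs (−3.44 ± 0.64, adjusted p = 0.0466). No hTNFtg library came near the lowest WT value. The log2 fold change of Il1rn was −3.66 without hTNFtg replicate 1 and −2.72 without replicate 3 (limma, adjusted p = 0.243 and 0.103). Lif, a cytokine of the IL-6 family, was the raised member (2, 2 and 1 against 44, 27 and 14, adjusted p = 0.111). Il18 and the stem cell factor gene Kitl were the other lowered ones, the latter at 54, 68 and 67 against 56, 19 and 12, where hTNFtg replicate 1 overlaps WT.

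Of 35 cytokine receptor genes, 7 were raised and 5 lowered (6 and 0 without hTNFtg replicate 1, 8 and 5 without replicate 3). The lowered count was 0, 1 and 2 without WT replicates 1, 2 and 3, and 2 without hTNFtg replicate 2. It includes Il11ra1 and Il11ra2, whose values are uncertain as separate from Ccl27a and Ccl27b, counted among the lowered chemokines. Il1rl1 (chr1:40429570-40465415), which encodes the IL-33 receptor ST2 and its soluble decoy form, read 195, 202 and 163 against 835, 676 and 699 (1.97 ± 0.27, adjusted p = 0.0115), with no overlap. Ifngr2, a chain of the interferon-γ receptor, read 54, 41 and 55 against 268, 141 and 146 (1.81, adjusted p = 0.056). The leukocyte receptor chains Il2rg (2, 1 and 3 against 174, 40 and 21) and Csf2rb (0, 7 and 0 against 37, 20 and 26) were raised as well. Downstream, none of 19 STAT, JAK and SOCS genes was raised or lowered by limma (0 and 1 by edgeR), a list too small for this to be read as a result. Stat3 read 600, 397 and 377 against 592, 425 and 381.

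Some innate sensor genes were raised. Of 16 Toll-like and NOD receptor genes with their adaptors, 5 were raised and none lowered (median 0.50), and 3 of the 16 passed the minimum through 1 genotype alone. Ripk2, the kinase downstream of NOD1 and NOD2, read 118, 148 and 70 against 268, 378 and 329 (1.58, adjusted p = 0.08), while Cd14 and Tlr13 had WT values of 13 or less. Cd14 is on the macrophage marker list, and Tlr13 is named above among genes that macrophages express. Of the 9 acute phase genes tested, haptoglobin (Hp, 254, 172 and 379 against 436, 1086 and 653) was raised next to Saa3, and 4 were raised without hTNFtg replicate 3. Serpina3n read 46, 23 and 13 against 6, 18 and 0, groups that overlapped, and its call did not hold without hTNFtg replicate 1 or 3. No acute phase gene was lowered when a WT library or hTNFtg replicate 3 was left out.

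Complement genes changed in both directions, with 9 of 21 raised and 3 lowered (7 and 3 without hTNFtg replicate 1, 9 and 4 without replicate 3). The median of 0.68 was 0.18 without hTNFtg replicate 1 and 1.42 without replicate 3. C3 (chr17:57203970-57228136), the component on which all complement routes converge, read 78, 69 and 162 in WT and 592, 1184 and 1171 in hTNFtg SFs (3.28 ± 0.40, adjusted p = 0.00631). Clusterin (Clu), a secreted chaperone that blocks the terminal complex, read 189, 142 and 302 against 19, 25 and 13 (−3.38 ± 0.41, adjusted p = 0.00627). The genotypes did not overlap in either gene. C1qb, C3ar1 and C5ar1, which macrophages express, were raised, and all 3 C1q chains are on the macrophage marker list. C1qb read 4, 15 and 10 against 187, 62 and 190 (3.78, adjusted p = 0.0209). C4b was lowered, at 251, 68 and 64 against 44, 34 and 11.

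Prostaglandin genes were called at the steps of synthesis, uptake and inactivation. Ptgs2 (COX-2), the inducible cyclooxygenase, was raised, and Ptges, the terminal synthase of prostaglandin E2, read 200, 190 and 179 in WT and 411, 546 and 335 in hTNFtg SFs (1.15 ± 0.29, adjusted p = 0.154). Hpgd (chr8:56294585-56321043), the dehydrogenase that inactivates prostaglandins, read 564, 645 and 427 against 93, 94 and 98 (−2.49 ± 0.28, adjusted p = 0.00598). Slco2a1 (chr9:102988712-103096002), the transporter that takes prostaglandins into cells, read 13, 16 and 21 against 218, 221 and 206 (3.64 ± 0.35, adjusted p = 0.00164). The hTNFtg libraries of Hpgd and Slco2a1 were close to each other and lay far outside the WT range. In the whole list 6 of 17 genes were raised and 1 was lowered (median 0.60). Slco2a1 kept log2 fold changes of 3.63 and 3.67, and Hpgd of −2.47 and −2.51, without hTNFtg replicates 1 and 3.

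**Figure D3:**
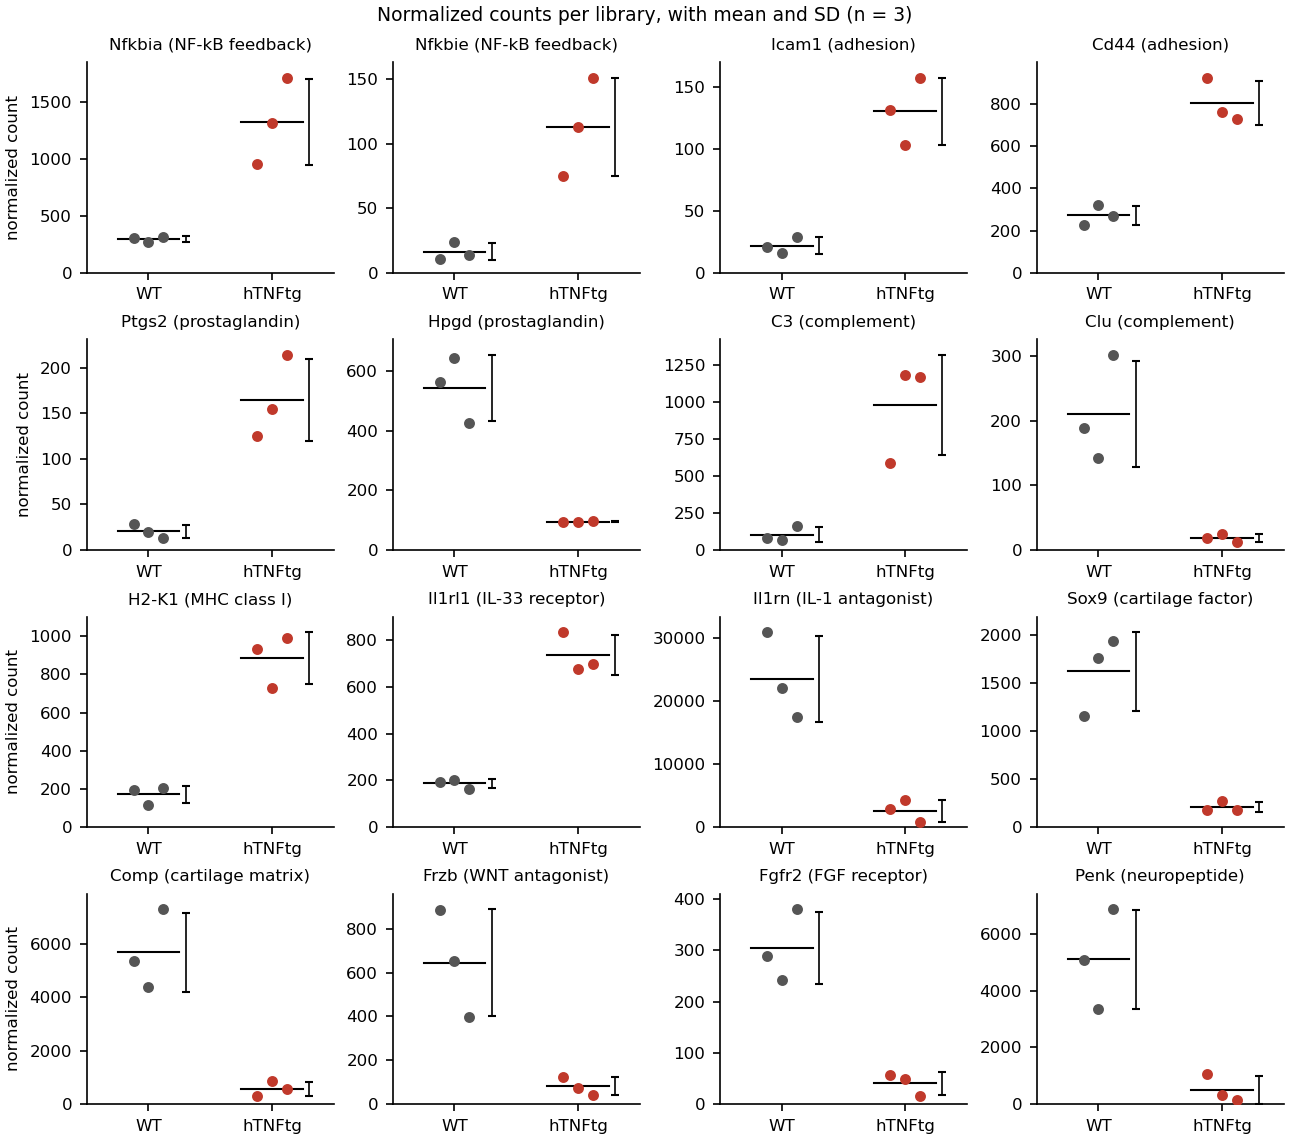
Normalized counts (y axis, from 0) of selected named genes in each WT and hTNFtg library, with 1 point per library and the group mean with its SD (n = 3). Hpgd lies at 427 to 645 in WT and 93 to 98 in hTNFtg SFs, and in none of the 16 genes drawn do the genotypes overlap.

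Of 20 MHC class I and antigen processing genes 5 were raised and none lowered (median 0.44), and 2 or 3 were raised when WT replicate 2 or hTNFtg replicate 3 was left out. The classical class I gene H2-K1 read 192, 118 and 203 in WT and 934, 730 and 990 in hTNFtg SFs (2.39 ± 0.31, adjusted p = 0.0094). Psmb8, a catalytic subunit of the immunoproteasome, read 85, 116 and 157 against 212, 349 and 332 (1.32, adjusted p = 0.159). Both were without overlap. Among 32 interferon-stimulated genes 29 were higher, with a median of 0.60, 6 were raised (7 by edgeR, 3 without WT replicate 1, 11 with array quality weights) and none had an adjusted p below 0.05. Of the 32, 6 passed the minimum through 1 genotype alone. Ifi47, an interferon-inducible GTPase, read 4, 1 and 3 against 37, 34 and 23 (adjusted p = 0.0988). Values of Ifit1 (1, 5 and 29 against 56, 28 and 38) overlapped.

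Among the adhesion molecules 3 genes were raised. Icam1, the ligand of β2 integrins, read 21, 16 and 29 in WT and 131, 103 and 157 in hTNFtg SFs (2.53 ± 0.39, adjusted p = 0.0189), although an antisense gene overlaps it. Ncam1 read 127, 155 and 110 against 548, 565 and 911 (2.33 ± 0.31, adjusted p = 0.00948). Cd44, the principal hyaluronan receptor, read 228, 319 and 269 against 922, 759 and 728 (1.56 ± 0.28, adjusted p = 0.0385). The list had 22 tested members, of which 1, Cadm3, was lowered. In Icam1, Ncam1 and Cd44 the genotypes did not overlap. Of 20 integrin genes 5 were raised and 1 lowered, and of the raised Itgam and Itgb2 are chains of leukocyte integrins. The minimum was passed through 1 genotype alone by 5 of the 20. Itga1, a collagen receptor chain, read 81, 90 and 103 against 19, 30 and 40 (−1.64, adjusted p = 0.128).

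Matrix proteases showed rises in a few members. Among 15 matrix metalloproteinases and their inhibitors (TIMPs), 4 were raised and none lowered (2 raised without WT replicate 3, 1 lowered without hTNFtg replicate 3). Next to Mmp3 these were Mmp12, Mmp9 and Timp1. The genotypes overlapped in Mmp9 (4.35), which was at 3.07 and not called without hTNFtg replicate 3. Mmp12, the macrophage elastase, read 0, 4 and 3 against 75, 26 and 27 (3.83, adjusted p = 0.0959). Timp1 read 2563, 1305 and 1402 against 4241, 4088 and 2901 (1.14, adjusted p = 0.398). Of 24 ADAM and ADAMTS proteases 7 were raised and 3 lowered. Adamts1 and the aggrecan-cleaving Adamts5 read 332, 250 and 393 against 1476, 1047 and 755 (adjusted p = 0.0558) and 685, 342 and 535 against 1962, 1324 and 1363 (adjusted p = 0.083). Adam23, which lacks protease activity, read 179, 386 and 322 against 50, 53 and 71 (−2.28 ± 0.36, adjusted p = 0.0213). The lysosomal cathepsins Ctss (1, 37 and 11 against 461, 140 and 145) and Ctsc (5, 27 and 25 against 125, 88 and 306) were the raised pair among 15 cathepsins and cystatins, and both are abundant in macrophages.

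Collagen genes moved in both directions. Of 29 collagen genes 3 were raised and 3 lowered (median −0.30), and 5 were lowered without hTNFtg replicate 1 or 3. Col5a3 read 348, 245 and 237 in WT and 754, 1593 and 1761 in hTNFtg SFs (2.23 ± 0.37, adjusted p = 0.0237). The short-chain collagens Col8a1 (405, 333 and 208 against 1271, 684 and 947) and Col8a2 (118, 242 and 580 against 37, 51 and 66) went in opposite directions, with log2 fold changes of 1.62 and −2.33. The lysyl oxidase-like enzymes Loxl2 (359, 389 and 308 against 1215, 833 and 1152, adjusted p = 0.044) and Loxl3 (224, 320 and 244 against 953, 708 and 1058, adjusted p = 0.0261), which crosslink collagen, were the raised members of 22 collagen processing genes. Loxl3 overlaps the called gene Htra2, whose reads may be shared.

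Small leucine-rich proteoglycans coat and space collagen fibrils. Of 11 tested none was raised, 4 were lowered and 2 were higher in hTNFtg SFs, with a median of −0.67 against −0.07 for all genes. Asporin (Aspn) read 171, 333 and 634 against 37, 88 and 71 (−2.41, adjusted p = 0.0605), osteoglycin (Ogn) 275, 357 and 539 against 125, 82 and 175 (−1.62, adjusted p = 0.0997), and lumican (Lum) 284, 990 and 1158 against 193, 217 and 230 (−1.69, adjusted p = 0.21). In Aspn, Ogn and Lum the groups did not overlap. Fibromodulin (Fmod) fell by 1.23 on the log2 scale (adjusted p = 0.439). Fmod was not called without hTNFtg replicate 3 (−0.85), nor was Lum without hTNFtg replicate 1 (−1.62).

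Among 49 matrix glycoproteins 4 were raised (1 and 2 without WT replicates 2 and 3) and 9 lowered. Comp (cartilage oligomeric matrix protein) read 5353, 4373 and 7288 in WT and 299, 848 and 550 in hTNFtg SFs (−3.42 ± 0.42, adjusted p = 0.00752), without overlap. Fibulin-7 (Fbln7) read 128, 188 and 312 against 12, 14 and 20 (−3.62 ± 0.42, adjusted p = 0.00598). Matn2 and Smoc1 were lowered too, with log2 fold changes of −2.35 and −2.78. Versican (Vcan), a large hyaluronan-binding proteoglycan, went up, at 209, 168 and 157 against 498, 543 and 763 (1.74 ± 0.29, adjusted p = 0.0274). Of the hyaluronan list, Cd44 and Cemip, a protein needed for hyaluronan breakdown, were raised (Cemip at 197, 81 and 106 against 1015, 327 and 340), while the synthase Has2 was lowered, at 71, 68 and 72 against 19, 25 and 36 (−1.41, adjusted p = 0.218).

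Genes of the chondrogenic programme were lower as a list, 6 of 13 lowered and none raised, with a median of −1.02. Of the 13, 5 passed the minimum through 1 genotype alone, which limits the reading of this count and median. Sox9 (chr11:112782224-112787760), the transcription factor that specifies cartilage, read 1160, 1761 and 1939 in WT and 174, 272 and 179 in hTNFtg SFs (−2.95 ± 0.32, adjusted p = 0.00492). Type II collagen (Col2a1), by contrast, read 60, 51 and 94 against 75, 88 and 37, groups that overlapped. The cartilage proteoglycan aggrecan (Acan) read 16, 16 and 5 against 0, 1 and 0 (limma, unadjusted P = 0.00257, adjusted p = 0.170), at a mean below the 10 that tested list members needed. A 0 in hTNFtg replicate 1 allows up to 18.7, above every WT value of Acan, so that library cannot show a separation. Of the osteoblast markers, Alpl (983, 441 and 710 against 0, 89 and 17) and Ibsp (76, 44 and 26 against 6, 1 and 0) were lowered with Sp7, Spp1 was raised (1013, 1320 and 1556 against 4217, 2155 and 2738) and Runx2 read 120, 113 and 128 against 87, 64 and 75.

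WNT pathway genes were lower in hTNFtg SFs as a list, with 15 of 44 lowered, none raised and 8 higher (median −0.47). The count of lowered genes was 12 without hTNFtg replicate 1, and 14 with 1 raised without replicate 3. Both antagonists and receptors of the pathway were among them. Frzb (sFRP3, chr2:80411970-80447625) read 886, 652 and 399 in WT and 125, 73 and 44 in hTNFtg SFs (−3.04 ± 0.42, adjusted p = 0.0115). Sfrp2 read 2632, 2500 and 4053 against 542, 185 and 44 (−4.17 ± 0.69, adjusted p = 0.0237). Its log2 fold change was −5.03 without hTNFtg replicate 1 and −3.23 without replicate 3. Nkd1, an intracellular antagonist that is also a WNT target, read 37, 30 and 33 against 0, 0 and 1, at least 4.38-fold lower. None of the groups overlapped. Sfrp2 overlaps the called gene Gm26771.

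Of 48 TGF-β and BMP genes 6 were raised (3 without WT replicate 2) and 11 lowered. Id4 and Id1, inhibitors of helix-loop-helix factors and targets of BMP signalling, read 307, 204 and 249 against 25, 34 and 13 (−3.42 ± 0.40, adjusted p = 0.00598) and 352, 528 and 594 against 37, 122 and 159 (−2.41, adjusted p = 0.0617). The ligand Tgfb2 read 586, 344 and 632 against 100, 137 and 204 (−1.83, adjusted p = 0.0558). Chrdl1, a secreted BMP antagonist, read 68, 73 and 79 against 6, 8 and 7 (−3.22 ± 0.47, adjusted p = 0.0161). Inhba, the activin A subunit, was raised (90, 61 and 23 against 125, 164 and 236).

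The insulin-like growth factor axis had 7 of 23 genes lowered and 2 raised (median −0.62). Igfbp4, a binding protein, read 28065, 23735 and 21589 in WT and 8383, 4757 and 2908 in hTNFtg SFs (−2.32, adjusted p = 0.151), and Igfbp2 3637, 2575 and 6407 against 311, 781 and 1057 (−2.62 ± 0.50, adjusted p = 0.0492). The receptor adaptor Irs1 was lowered (579, 226 and 313 against 125, 107 and 48), while the receptor Igf1r was raised (203, 169 and 139 against 542, 312 and 382, adjusted p = 0.148). Among 33 ligands and receptors of the FGF, PDGF, VEGF, EGF and HGF families 8 were raised and 5 lowered. The lymphangiogenic factor Vegfc (43, 28 and 20 against 149, 138 and 293, adjusted p = 0.0235) and Angptl7 (19, 42 and 21 against 212, 215 and 137, adjusted p = 0.0137) were raised. The FGF receptors Fgfr2 (289, 243 and 380 against 56, 50 and 15, adjusted p = 0.0192) and Fgfr3 (88, 57 and 94 against 0, 8 and 2, adjusted p = 0.0278) and the decoy-like Fgfrl1 were lowered. The annotated span of Fgfr2 covers other genes, including Chst15 and Cpxm2 on the same strand, which were also lowered, so its value is uncertain. All of these growth factor genes separated the genotypes.

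Patterning and guidance genes had more lowered than raised members. Of 44 semaphorin, ephrin and axon guidance genes 12 were lowered and 5 raised (7 lowered without WT replicate 2). Their median of −0.50 was −0.18 without hTNFtg replicate 1. The lowered included Ephb3 (2899, 1654 and 1670 against 916, 945 and 463), Ephb2 and Efnb1, receptors and a ligand of cell contact signalling, with adjusted p of 0.198, 0.211 and 0.136. Sema3c, a secreted semaphorin, was raised, at 31, 15 and 25 against 131, 116 and 129 (2.41 ± 0.39, adjusted p = 0.0235). Of 37 HOX and limb patterning genes 8 were lowered and 1 raised, and 4 or 5 were lowered when a WT library or hTNFtg replicate 1 was left out. Irx3 read 258, 244 and 301 against 50, 80 and 90 (−1.89 ± 0.32, adjusted p = 0.0274).

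**Figure D4:**
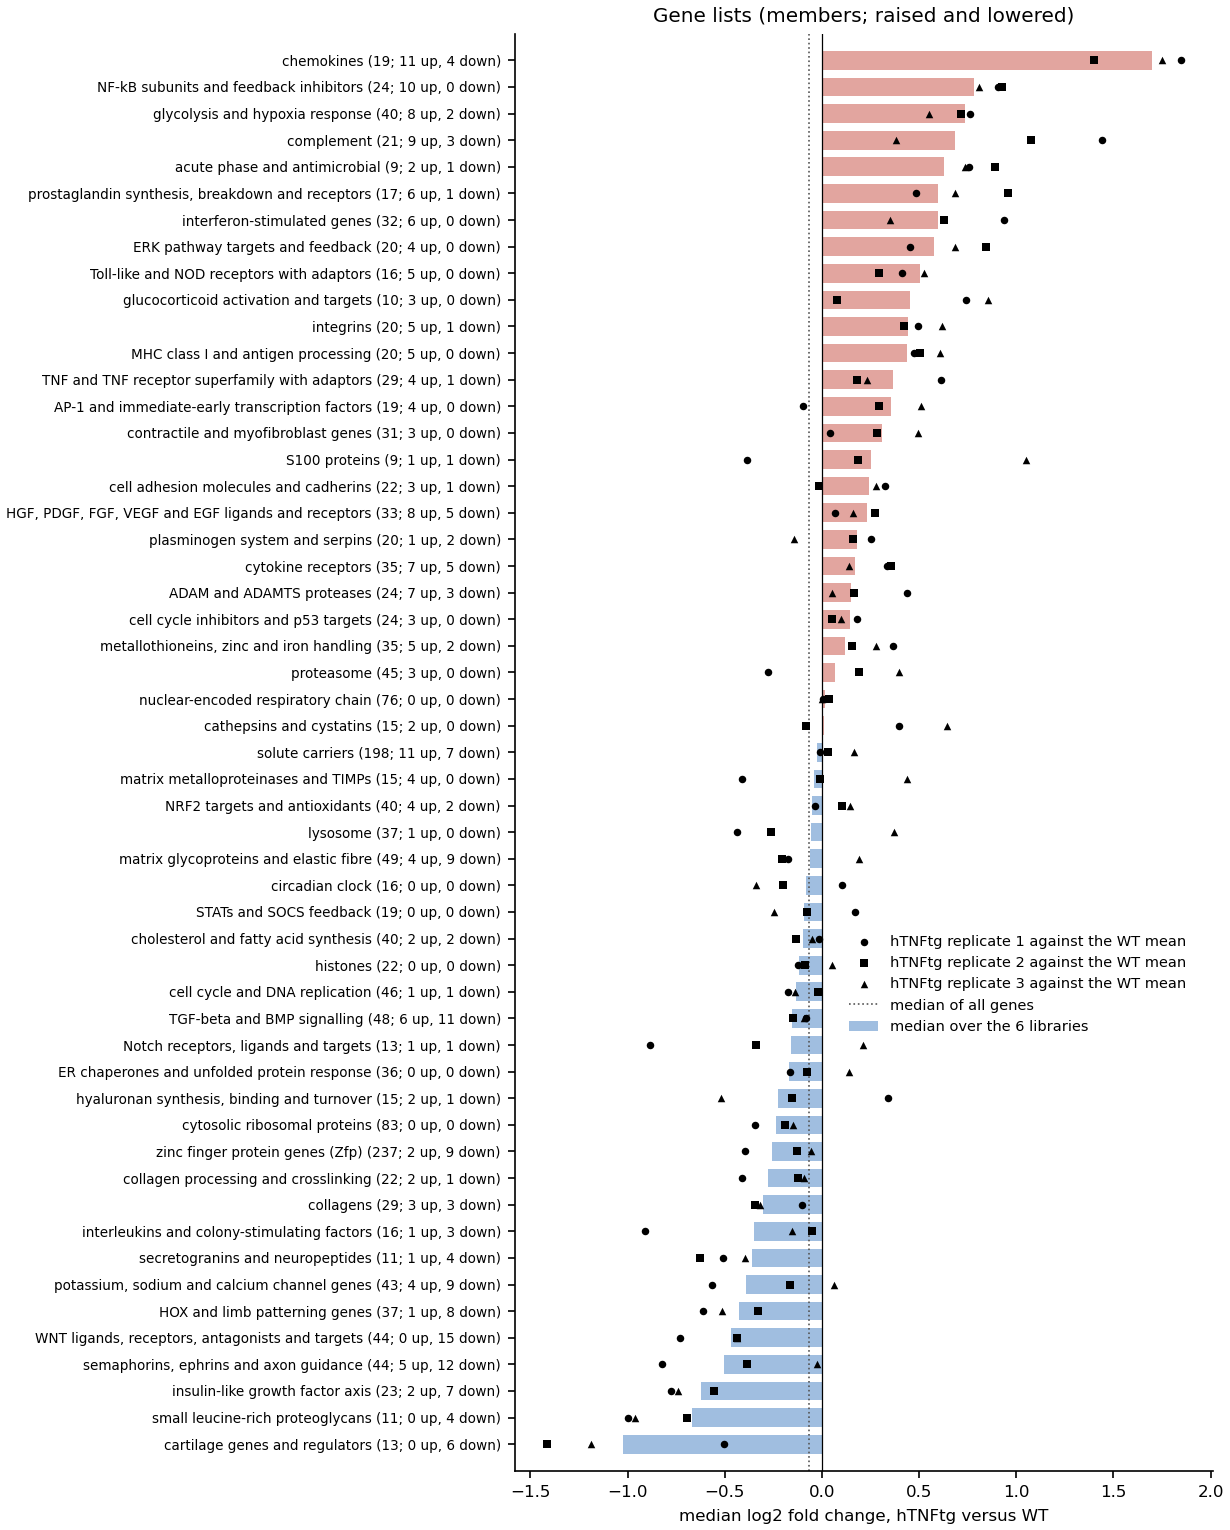
Median log2 fold change (hTNFtg minus WT, x axis) of the tested members of each gene list (y axis), as bars over the 6 libraries, with marks for each hTNFtg library against the WT mean. The chemokine list (1.70) and the cartilage list (−1.02) lie at the ends, and the line marks the median of all tested genes, −0.07. In each of these lists 5 members passed the minimum through 1 genotype alone.

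Of 20 ERK targets and feedback genes 4 were raised and none lowered (8 and 1 without hTNFtg replicate 1, 7 and 1 by edgeR). Their median of 0.58 was 0.25 without hTNFtg replicate 3. Dusp6, the phosphatase that feeds back on ERK, read 40, 68 and 61 against 131, 291 and 451 (2.21, adjusted p = 0.0606), and cyclin D1 (Ccnd1) 1017, 1237 and 1039 against 2965, 3538 and 3566 (1.61, adjusted p = 0.0646). Ccnd1 overlaps the called Oraov1. Of 19 AP-1 and immediate-early factors 4 were raised and none lowered, and 1 was raised without WT replicate 2 and 2 without WT replicate 3 or hTNFtg replicate 1. In the cell cycle list 16 of 46 genes were higher, with Pcna raised and Plk1 lowered (none raised and 3 lowered without hTNFtg replicate 1 or 3, 1 and 2 without hTNFtg replicate 2, none raised without WT replicate 1 or 2). Among 24 cell cycle inhibitors and p53 targets 3 were raised and none lowered (4 and 2 without hTNFtg replicate 1, 4 and 1 without replicate 3), with Cdkn1a (p21) at 391, 481 and 302 against 1401, 701 and 1600 (1.59, adjusted p = 0.106).

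Glycolysis and hypoxia genes were mostly higher, 33 of 40, with 8 raised, 2 lowered and a median of 0.74. The raised count was 5 without WT replicate 3 and 13 without hTNFtg replicate 3, and 10 by edgeR, and no member had an adjusted p below 0.05 with limma. The glycolytic enzyme Gpi1 read 306, 402 and 303 against 685, 711 and 996 (1.23, adjusted p = 0.127) and the glucose transporter Slc2a1 98, 95 and 116 against 473, 283 and 139 (1.36, adjusted p = 0.267). Epas1, which encodes HIF-2α, was lowered (47, 31 and 29 against 6, 9 and 9). None of 76 nuclear-encoded respiratory chain genes was raised or lowered by limma (0 and 1 by edgeR), and their median was 0.02.

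Antioxidant and metal-handling genes changed singly. The mitochondrial superoxide dismutase Sod2, an NF-kB target, read 273, 327 and 287 against 673, 848 and 738 (1.34, adjusted p = 0.0663) and the extracellular enzyme Sod3 322, 306 and 350 against 903, 922 and 633, within a list of 40 with 4 raised and 2 lowered. The metallothionein Mt1 read 499, 533 and 340 against 1694, 1265 and 1553 (1.73 ± 0.31, adjusted p = 0.037), while the ferrireductase Steap3 read 159, 221 and 220 against 19, 11 and 35 (−3.28 ± 0.44, adjusted p = 0.00948). Both pairs of groups were apart. Of 35 genes of that list 5 were raised (3 without WT replicate 3 or hTNFtg replicate 1) and 2 lowered (4 without hTNFtg replicate 1).

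Ion channel genes gave some of the largest single differences. Of 43 potassium, sodium and calcium channel genes with their FXYD partners, 4 were raised and 9 lowered. The minimum was passed through 1 genotype alone by 12 of the 43. The list median of −0.39 was 0.10 without hTNFtg replicate 1, so no direction is given to it. Kcnn4 (chr7:24370263-24386690), the calcium-activated potassium channel KCa3.1, read 9, 20 and 10 in WT and 187, 135 and 166 in hTNFtg SFs (3.62 ± 0.42, adjusted p = 0.00598). Kcne4, an auxiliary potassium channel subunit, read 116, 75 and 74 against 0, 9 and 0 (−5.34, adjusted p = 0.0273), and Cacna1a, a calcium channel pore subunit, 799, 361 and 459 against 100, 168 and 64 (−2.30 ± 0.41, adjusted p = 0.0348). Of 198 solute carriers 11 were raised (5.56%) and 7 lowered (3.54%), near the shares of all tested genes (4.96% and 4.03%). Slc1a3, a glutamate transporter, read 300, 383 and 441 against 50, 122 and 49 (−2.45 ± 0.39, adjusted p = 0.0213). The lowered count of the solute carriers was 11 and 14 without hTNFtg replicates 2 and 3.

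Neuropeptide and secretory granule genes, 11 of them tested, had 4 lowered and 1 raised, and 3 of the 11 passed the minimum through 1 genotype alone. Proenkephalin (Penk), the precursor of enkephalin opioid peptides, read 5079, 3371 and 6877 against 1059, 337 and 133 (−3.75 ± 0.62, adjusted p = 0.0237). Calca, the calcitonin and CGRP gene, read 10, 44 and 32 against 0, 0 and 1, at least 3.76-fold lower. Neuropeptide Y (Npy) read 2, 1 and 1 against 37, 27 and 41, at least 13.9-fold higher.

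Several other lists are set beside the shares of all tested genes, 4.96% raised and 4.03% lowered. No gene was raised or lowered among 83 cytosolic ribosomal proteins (median −0.24, 13 higher), 36 ER chaperone and unfolded protein response genes, 16 circadian clock genes or 22 histone genes, by limma or by edgeR. At the shares of all tested genes the ER, clock and histone lists would hold few calls, so their lack of calls is not read as a result. The proteasome had 3 of 45 raised (6.67%, 6 genes without hTNFtg replicate 2, 1 without replicate 3), of which Psmb8 and Psmb10 belong to its inducible form. Lysosomal genes had 1 of 37 raised (2.70%). Cholesterol and fatty acid genes had 2 raised, Ch25h and Abca1, and 2 lowered of 40 (5% each). Among 237 Zfp genes 2 were raised (0.84%) and 9 lowered (3.80%). Their median was −0.26, or −0.11 without hTNFtg replicate 1, and the lowered count ranged from 5 to 18 when single libraries were left out. Of 31 contractile genes 3 were raised (9.68%, 5 genes without WT replicate 3) and none lowered, with tropomyosin 1 (Tpm1) at 1683, 1200 and 1108 against 5095, 2896 and 3200.

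**Figure D5:**
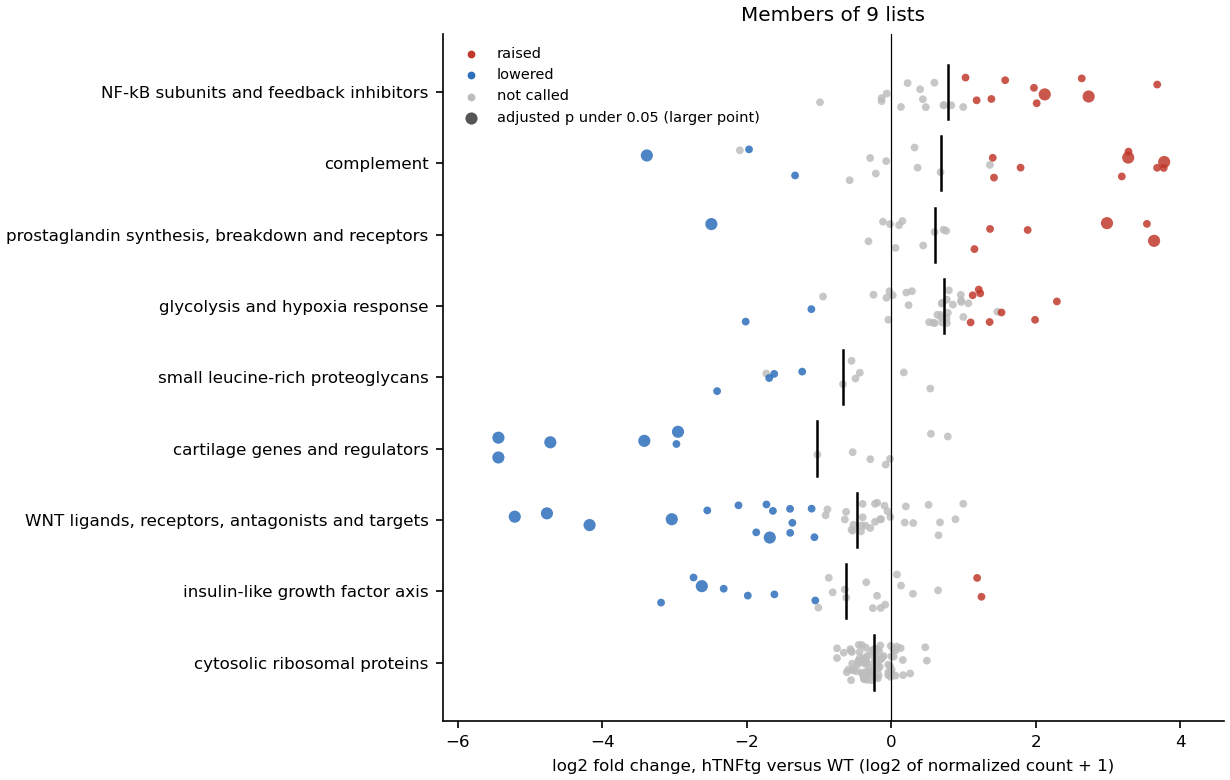
Log2 fold change (hTNFtg minus WT, x axis) of every tested member of 9 gene lists (y axis), 1 point per gene, coloured by call, larger where the adjusted p is below 0.05, with a line at each list median. WNT genes include 15 lowered and 0 raised of 44, and NF-kB genes 10 raised and 0 lowered of 24.

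Gene type, base composition and overlap with other genes were not part of the call. Of the raised genes 587 (86.8%) and of the lowered 500 (91.1%) were protein coding, against 84.6% of all tested genes. The median GC content was 47.7% in raised genes, and 46.6% in lowered and in all tested genes. A position overlapping another gene called in the same direction was found for 71 raised and 61 lowered genes, so part of the calls is not independent. Levels decide the calls and are given as a description. The median level of raised genes went from 21 in WT to 79 in hTNFtg SFs and that of lowered genes from 91.3 to 30. Of the raised, 212 had a WT mean below 10 and 27 were at or under 3 reads in every WT library. Of the lowered, 123 had an hTNFtg mean below 10. The fitted difference was at least 16-fold in 33 raised and 27 lowered genes. These include genes with a whole group at or under 3 reads, whose bounds are lower (3.63-fold for Galnt9, 13.7-fold for Fxyd2). The groups did not overlap in 604 of the raised and 475 of the lowered genes.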

How the data were processed

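Libraries were compared as deposited. The authors aligned the reads to mm10 with TopHat2 and Bowtie2, counted them per gene with GenomicRanges, and normalized the counts with DESeq within metaseqR. The values the authors deposited are these normalized counts rounded to whole numbers, a score for the purpose of testing and not raw counts. In hTNFtg replicate 1 the deposited signal moves in steps of 1 read, and whole reads could be recovered, with 97.9% of its values given back to within rounding. GC content is a fraction in the deposited table and was used as a description. A further 24 per-sample columns (log2 and length-normalized values) and the columns of the authors' own comparisons (fold changes and p-values) were not used. The hTNFtg columns of both tables were identical.

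The 28522 genes detected in any library of the comparison were fitted with limma 3.58.1 (trend, R 4.3.3) on log2(normalized count + 1), without covariates, with Benjamini-Hochberg adjustment over all of them. Fold changes are on that scale, which in general understates the change of low genes, but for several genes at 0 in the shallow hTNFtg replicate 1 they were larger than those of edgeR. A count test was planned where files held counts; since they do not, limma was the main test and edgeR 4.0.16 on approximate recovered reads an alternative, with 806 genes at an adjusted p below 0.05. p-values measure only the spread between these libraries. Folds against a group at or under 3 reads in every library were set against that floor and cover counting error only.

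The genes and 54 lists (53 with tested members) were chosen with earlier results of these data known. Il21r and Il1rn were taken off lists on which a name pattern had put them wrongly, after their values were seen. Named genes are the 10 largest rises and falls with an adjusted p below 0.05 and no overlap, up to 4 genes per list and direction with the smallest P, the 2 most abundant genes of a list with no call, the cell type markers, and Tnf with its receptors. Promoters came from RefSeq (GRCm38.p6), by symbol, for 9081 of 13617 gene names. Scripts were tested on simulated data. Alternatives were pseudocounts of 0.5 and 5, quantile and median-ratio scaling, a fit of the 13634 genes alone, array weights, robust shrinkage, a replicate block, all 9 libraries, edgeR, and each library left out. One item is not reported here.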

Additional observations from a re-analysis of the deposited data

How the results depend on the processing

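Of 53 list medians 15 changed sign in at least 1 alternative. Except for the channel list, these lay between −0.16 and 0.25 with all libraries. Of 234 named genes, 0 to 32 lost their call under single alternatives, and no called gene changed sign. In lists with at most 2 calls in a direction, leaving out 1 library often moved the count by 1 or 2. Raised counts moved between 543 and 893. Lowered counts were 370 to 894 with 1 library left out, the highest without hTNFtg replicate 3 and the lowest without WT replicate 2. Calls at an adjusted p below 0.05, 137 with all libraries, depended far more on the setting. They were 1 to 44 with 1 library left out (1 without WT replicate 2, 4 without WT replicate 1, 3 without WT replicate 3, 6, 17 and 44 without hTNFtg replicates 1, 2 and 3), 747 with array quality weights, 437 with robust shrinkage, 355 with all 9 libraries in the fit and 806 with edgeR. In an alternative chosen after seeing the data, edgeR without hTNFtg replicate 1, they were 881. With the replicate number as a block no gene passed (limma, with 1729 genes at an unadjusted p below 0.05), 629 were raised and 493 lowered. Deviations of same-numbered libraries correlated by 0.29, −0.13 and 0.35, and those of differently numbered libraries by −0.48 to 0.24. With 3 libraries per group these values cannot decide whether the numbers pair the libraries. Leaving out hTNFtg replicate 1 moved the median of all genes from −0.068 to −0.0036, and the share of raised among the calls was 55.2%, 58.8% to 59.5% without single WT libraries, 53.9%, 50.8% and 48.7% without hTNFtg replicates 1, 2 and 3, and 58.3% with edgeR. Depth limits low genes in hTNFtg replicate 1, where a count of 0 allows up to 18.7.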

Other observations

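Several imprinted genes, looked up after values had been seen, were lowered in hTNFtg SFs. Imprinted genes are expressed mainly from the allele of 1 parent, and many of them regulate fetal growth. Of 30 sought, 19 had a mean of at least 10, and of these 0 were raised, 8 lowered and 11 not called, 6 of them higher in hTNFtg SFs (Peg12, the highest, at 0.72), with a median log2 fold change of −0.62 against −0.07 for all genes (7 lowered without hTNFtg replicate 1, 8 without replicate 3). Besides Mest, Plagl1, a zinc finger transcription factor, read 113, 64 and 87 in WT and 6, 13 and 15 in hTNFtg SFs (−2.90, adjusted p = 0.0274). The non-coding H19 read 215, 124 and 126 against 87, 51 and 25, and the Notch ligand-like Dlk1 137, 106 and 102 against 62, 21 and 9, without overlap in these 3 genes. Igf2, Peg3, Slc38a4 and Ppp1r9a were the other lowered ones. As the genes were selected on these values, no test was made of them as a set.

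Part of the called genes had a neighbour called in the same direction. Of the raised protein coding genes 124 of 587 (21.1%) had another raised gene, not overlapping, within 100 kb, where 12.7% of all 11534 tested protein coding genes had a raised one that near. For lowered genes it was 86 of 500 (17.2%) against 9.89%. Raised neighbours included Ccl2, Ccl7 and Ccl8, and C1qa, C1qb and C1qc, and also the volume-regulated anion channel genes Lrrc8b, Lrrc8c and Lrrc8d and the C-type lectins Clec4a2, Clec4n, Clec4d and Clec4e. Gene families of this kind arose by duplication, and their members are not independent. Other called neighbours share no family name, such as the raised C3, Vav1 and Adgre1 and the lowered Lrrc75b, Ggt5, Susd2 and Cabin1. C1qa, C1qb, C1qc and Adgre1 are on the macrophage marker list, and the part of macrophages in these neighbours was not tested.

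Small RNA genes (snoRNA, miRNA, snRNA and the like) were not evenly spread over the libraries. They took 4.63% of the normalized counts in hTNFtg replicate 1 and 3.31% to 4.08% in the others, and 51 of the 403 tested ones were over 10 times higher in that library than in any other. Of the 403, 23 were raised and 10 lowered, and 19 were raised without hTNFtg replicate 1. Over all tested genes the shares were 4.96% raised and 4.03% lowered, so these counts are given as a description.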
